A study of Mus musculus with 38 samples.

Results

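Fibroblast and myofibroblast markers were followed in whole omental tumors of 2 mouse models of high-grade serous ovarian cancer, 60577 and HGS2, and in the malignant cell lines that give rise to them. The 10 genes are Acta2, Tagln, Myl9, Pdgfra, Pdgfrb, Fap, Thy1, Pdpn, S100a4 and Dpt, picked by symbol and matched by Ensembl identifier in both count tables out of 55487 genes. Every gene was found in both tables. All 10 passed the filter on low counts in tumors, and 9 passed it in the cell lines, where Fap did not.

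The 60577 line was grown in female FVB mice and the HGS2 line in female C57BL/6J mice, which received the malignant cells into the peritoneal cavity at 8 to 9 weeks of age. Treated mice received 3 weekly doses of carboplatin (20 mg/kg) with paclitaxel (10 mg/kg), beginning 21 days after cell injection for 60577 and 49 days after it for HGS2, while control mice were given the vehicle. The last dose preceded tumor collection by 1 day at TP1, by 7 days at TP2 and by 21 days at TP3, and each tumor came from a different mouse. For 60577 there were 3 control and 3 treated tumors at TP1, 3 control and 4 treated at TP2, and 4 treated at TP3. For HGS2 there were 3 and 3 at TP1, 4 and 3 at TP2, and 4 treated at TP3, of which 1 (replicate 1) is missing from the study's own tables, was kept out of the tests given here and is shown separately. No control tumors were taken at TP3, so TP3 treated tumors were set against TP2 controls, where the effects of treatment and of time cannot be told apart. Each line was also sequenced alone in culture with 2 libraries, and nothing in the labels says whether these were separate cultures. The genetic alterations of the lines are not given in the sources used here.

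Fibroblasts build and remodel the collagen-rich matrix between the cells of a tissue. When activated in a wound or a tumor they can become myofibroblasts, which assemble contractile bundles of smooth muscle actin, and they grow and migrate in response to platelet-derived growth factors (PDGF). The omentum, the fatty apron of the abdomen where ovarian cancer often spreads, holds fibroblasts, mesothelial cells, adipocytes and clusters of immune cells, and none of the 10 genes belongs to fibroblasts alone.

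The contractile genes are Acta2 (smooth muscle actin, ENSMUSG00000035783, chr19:34241090-34255590, minus strand), Tagln (transgelin, an actin-binding protein, ENSMUSG00000032085, chr9:45929619-45936058, minus strand) and Myl9 (a regulatory light chain of myosin, ENSMUSG00000067818, chr2:156775420-156781658, plus strand), and vascular smooth muscle and pericytes use them too. Pdgfra (ENSMUSG00000029231, chr5:75152292-75198215, plus strand) and Pdgfrb (ENSMUSG00000024620, chr18:61045150-61085061, plus strand) encode the receptors for PDGF, the beta receptor being also a pericyte marker. Fap (ENSMUSG00000000392, chr2:62500943-62574075, minus strand) encodes a serine protease on the surface of activated fibroblasts. Thy1 (ENSMUSG00000032011, chr9:44043384-44048579, plus strand) encodes a surface glycoprotein of fibroblasts that mouse T cells also carry. Pdpn (podoplanin, ENSMUSG00000028583, chr4:143267431-143299564, minus strand) marks lymphoid stroma, lymphatic endothelium and mesothelium as well as fibroblasts. S100a4 (ENSMUSG00000001020, chr3:90603771-90606045, plus strand) encodes a calcium-binding protein once called fibroblast-specific, which leukocytes and invasive tumor cells also make. Dpt (dermatopontin, ENSMUSG00000026574, chr1:164796644-164824266, plus strand) encodes a matrix protein used to mark the common fibroblasts of resting connective tissue. All 10 are protein-coding, and the coordinates are those of build GRCm38 in GENCODE M21.

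Levels are given as RPKM, expected read counts divided by exon length and by scaled library size, so that levels of different genes can be set beside each other. A gene is said to have risen or fallen only where edgeR's quasi-likelihood test gave an adjusted p under 0.05 and a change of more than 2-fold (absolute log2 above 1), and fold changes are log2 values ± SE. In whole tumors, fewer cells of a type and less RNA per cell cannot be told apart. Where groups are said not to overlap, this only describes the values. Small groups can separate by chance, and the share of all genes without overlap was not counted. Between untreated 60577 time points, where 0% of all genes were called, 1 of the 10 genes did not overlap.

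Contractile genes are classically switched on by serum response factor through a sequence called the CArG box, and the stretches in which such a box was found are shown. Whether the box bears on any change of these genes was not tested. Of the 10 genes, 6 are in the RefSeq promoter table (build GRCm38.p6), and Tagln is not among them. In the 250 bases before the start site that this table gives, an exact CArG box was found in Myl9 only among those 6, at 161 bases before the start, and 1.47% of all 32851 promoter windows of that length hold one. In Acta2 no exact box was found, but 2 boxes with 1 changed letter in the middle were, at 84 and 34 bases before the start, and 7.24% of all windows hold at least 1 of that kind. The box reads the same way on both strands, and the capitals below mark it. The Myl9 stretch is chr2:156775214-156775419 (plus strand), and the Acta2 stretches are chr19:34255438-34255467 and chr19:34255388-34255417 (minus strand), each given 5′ to 3′. The RefSeq starts of Myl9 and Acta2 lie inside the genes as GENCODE M21 draws them, and so do both Acta2 boxes. A match describes letters only.
Myl9: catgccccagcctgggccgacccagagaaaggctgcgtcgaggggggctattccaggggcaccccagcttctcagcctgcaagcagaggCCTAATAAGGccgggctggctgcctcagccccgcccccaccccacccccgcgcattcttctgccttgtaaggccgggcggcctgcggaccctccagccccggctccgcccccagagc
Acta2, distal: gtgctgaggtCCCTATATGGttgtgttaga
Acta2, proximal: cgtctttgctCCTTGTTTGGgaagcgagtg

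Depth ranged from 17839641 to 49299421 counts per tumor and from 31633099 to 42461989 per cell line library. Libraries differed in composition in 2 ways that bear on the results. The share of 7SL RNA, a small cytoplasmic RNA, ran from 1.93% to 26.5%, with the highest in 60577 TP2 treated replicate 4, HGS2 TP2 control replicate 2 (20.9%) and 60577 TP2 treated replicate 3 (19.4%). The 60577 tumors among these also had low mitochondrial shares (0.360% and 0.399%). Pancreatic acinar genes, which belong to the organ beside the omentum, summed to more than 500 RPKM in 7 of the 33 tumors tested, of which 6 were HGS2 tumors. Each comparison was repeated without such libraries.

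**Figure D1:**
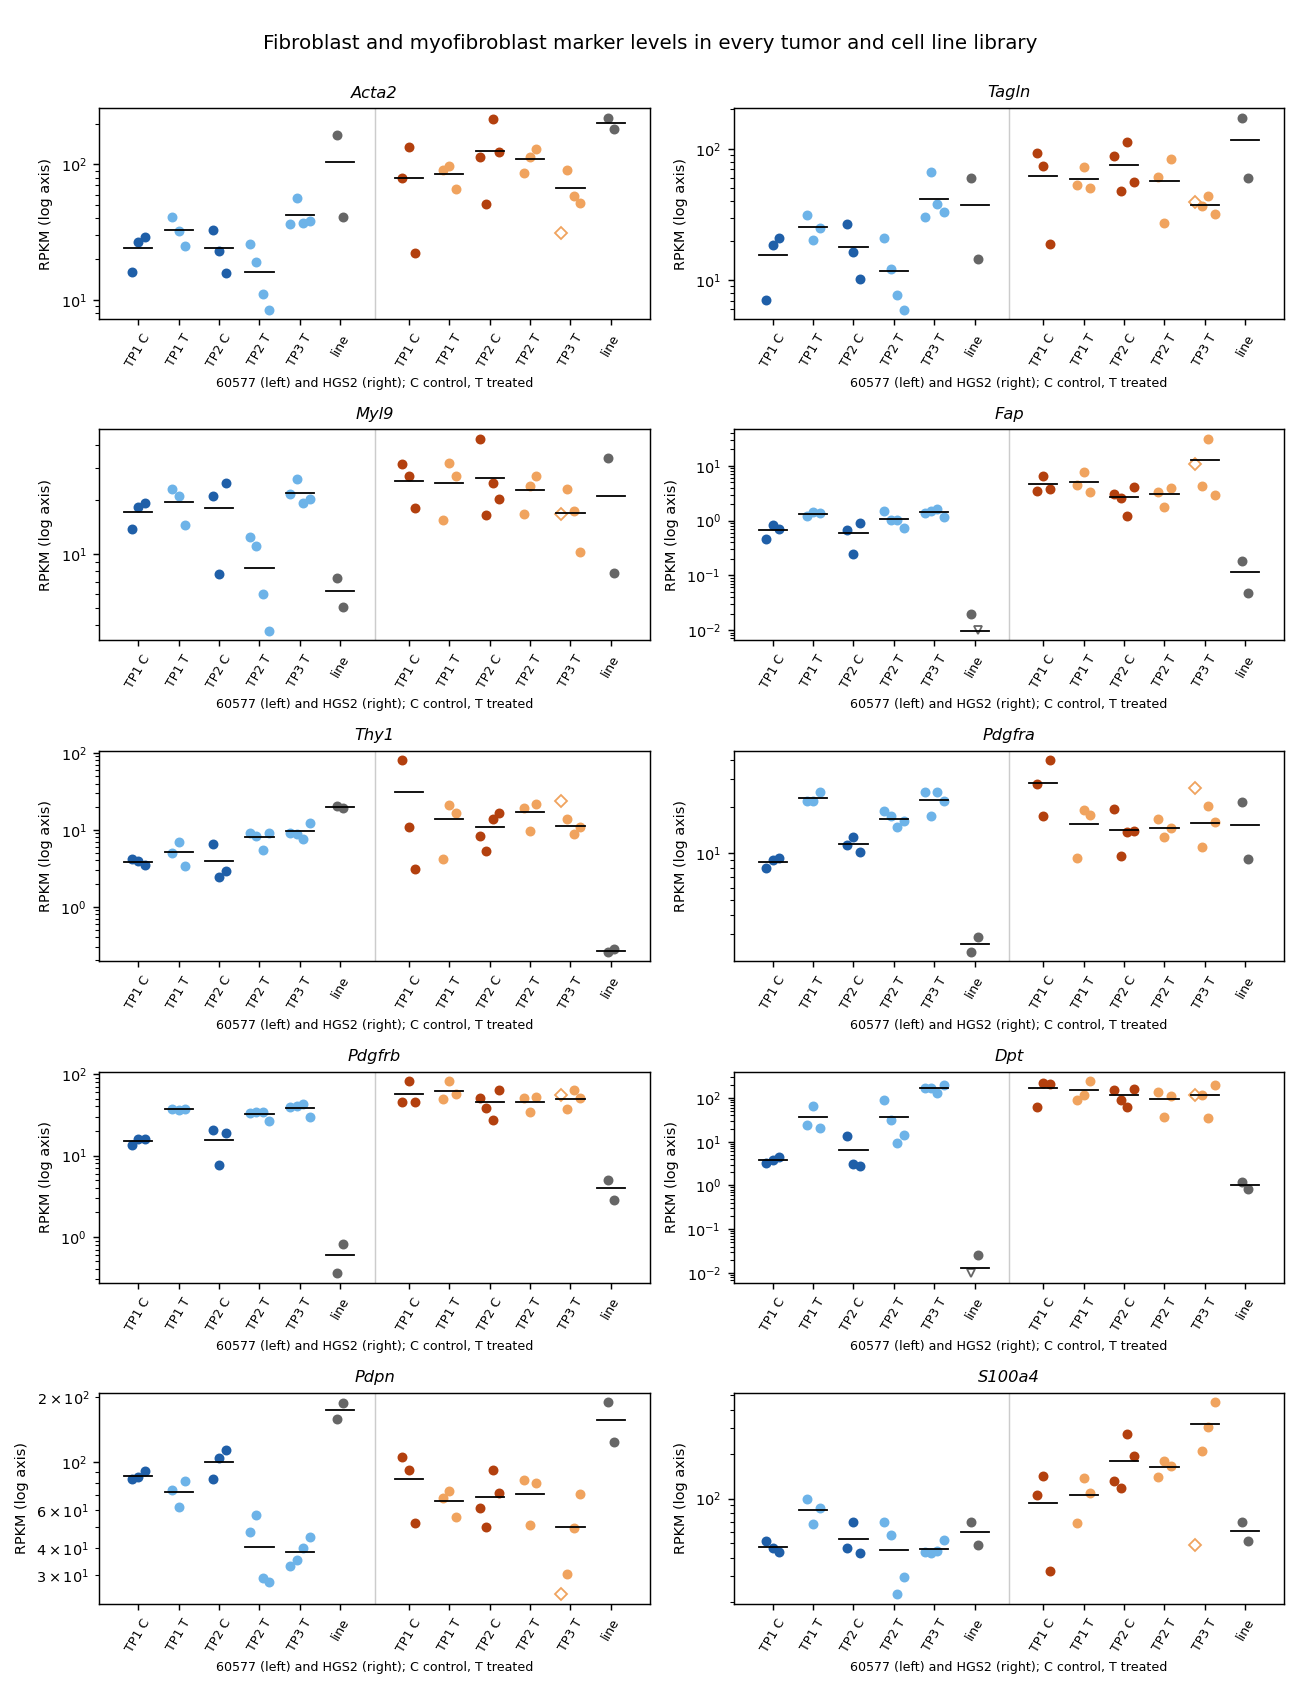
Level of each of the 10 genes (RPKM, log axis) in every tumor and cell line library, with 60577 on the left and HGS2 on the right of each panel. Filled points are libraries, horizontal bars are group means, open diamonds are HGS2 TP3 treated replicate 1 (not in the means), and open triangles are counts of 0 drawn at 0.01 RPKM. Dpt climbed from 3.84 RPKM in 60577 TP1 controls to 169 RPKM at TP3, whereas HGS2 tumors held it at 34.9 RPKM or more in every group.

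The malignant lines themselves expressed part of this set. Pdpn, Acta2, S100a4 and Tagln were abundant in both lines, Thy1 was abundant in the 60577 line alone, and Fap and Dpt were close to absent in both. Pdpn had the highest mean of the 10 in the 60577 line, with 159 and 187 RPKM, and stood at 189 and 123 RPKM in the HGS2 line. Every one of 17 tumors of 60577 (27.8 to 113 RPKM) and of 16 tumors of HGS2 (30.4 to 105 RPKM) lay below the libraries of its own line. Tumors and lines come from separate tables and were not tested against each other.

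Acta2, the standard myofibroblast marker, was at 166 and 40.9 RPKM in the 60577 line and at 220 and 181 RPKM in the HGS2 line. Among 60577 tumors, 16 of 17 had less Acta2 than either library of the line, and among HGS2 tumors 15 of 16 had less. Tagln stood at 59.5 and 14.6 RPKM in the 60577 line and at 172 and 59.9 RPKM in the HGS2 line, against medians of 17.5 RPKM in the 6 controls of 60577 and 74.2 RPKM in the 7 controls of HGS2. Myl9 was lower in the 60577 line (7.34 and 5.05 RPKM) than in 15 of 17 tumors, and in the HGS2 line its libraries were far apart (33.97 and 7.83 RPKM). The malignant cells in culture thus held contractile transcripts at levels of the same order as whole tumors. Their level in malignant cells within tumors was not measured. The libraries of a line were far apart in these genes: Acta2 and Tagln were both lower in 60577 replicate 2, and Tagln and Myl9 were both lower in HGS2 replicate 2.

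Thy1 was the one gene of the set called lower in the HGS2 line. It was at 20.3 and 19.5 RPKM in the 60577 line and at 0.259 and 0.279 RPKM in the HGS2 line (log2 difference of HGS2 over 60577 −6.20 ± 0.23, adjusted p = 0.00094). In the tumors the order was turned around: all 17 tumors of 60577 had less Thy1 than their line (2.41 to 12.3 RPKM), and all 16 of HGS2 had more (3.09 to 80.6 RPKM). The highest value, 80.6 RPKM in HGS2 TP1 control replicate 1, was that of a single tumor, and the other HGS2 controls ranged from 3.09 to 16.5 RPKM.

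Pdgfra stood at 2.32 and 2.87 RPKM in the 60577 line and at 21.2 and 9.14 RPKM in the HGS2 line (log2 2.55 ± 0.43, adjusted p = 0.019). The HGS2 line thus held as much Pdgfra as HGS2 tumors did, where the median of the controls was 17.3 RPKM. Pdgfrb was low in both lines, at 0.36 and 0.82 RPKM in 60577 and at 5.02 and 2.88 RPKM in HGS2 (log2 2.73 ± 0.51, adjusted p = 0.023), and every tumor of either model lay above its line, with control medians of 16.0 and 46.0 RPKM.

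Fap and Dpt were barely detected in the lines, with every tumor of either model above its line. Fap gave 4 and 0 counts in the 60577 line and 31 and 10 counts in the HGS2 line, at most 0.185 RPKM, and a count of 0 allows up to 0.0119 RPKM there. Dpt gave 0 and 2 counts in the 60577 line (a count of 0 allows up to 0.0477 RPKM) and 62 and 53 counts in the HGS2 line, or 1.21 and 0.83 RPKM. The HGS2 line held 69.8 times as much Dpt as the 60577 line, with an exact Poisson 95% interval from 18.9 to 583 that covers counting error only, and the test called it (adjusted p = 0.017). S100a4 (69.3 and 48.9 RPKM against 70.0 and 51.4 RPKM) and Pdpn overlapped between the lines and were not called.

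Between the lines, 3 of the 9 genes tested were higher in HGS2 (Pdgfra, Pdgfrb, Dpt) and 1 was lower (Thy1), where 7.55% of all 13742 genes tested were higher and 8.38% lower. With 2 libraries a line these calls were fragile. Each fit without 1 library leaves 1 line with a single library, whose spread is assumed to equal that of the other line. Leaving out 60577 replicate 1 kept Thy1 only (adjusted p = 0.093 for Pdgfra, 0.076 for Pdgfrb and 0.069 for Dpt), and leaving out 60577 replicate 2 lost Pdgfra (0.094) and Dpt (0.060). The Dpt difference rests on 2 counts in the 60577 line, and its log2 value of 5.99 became 5.19 and 8.92 in these fits. Pdgfrb was at 3.45 without 60577 replicate 2, and Pdgfra at 1.82 without HGS2 replicate 1. Without HGS2 replicate 2, Tagln (log2 2.26, adjusted p = 0.040) and Myl9 (2.50, 0.0012) were called as well.

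**Figure D2:**
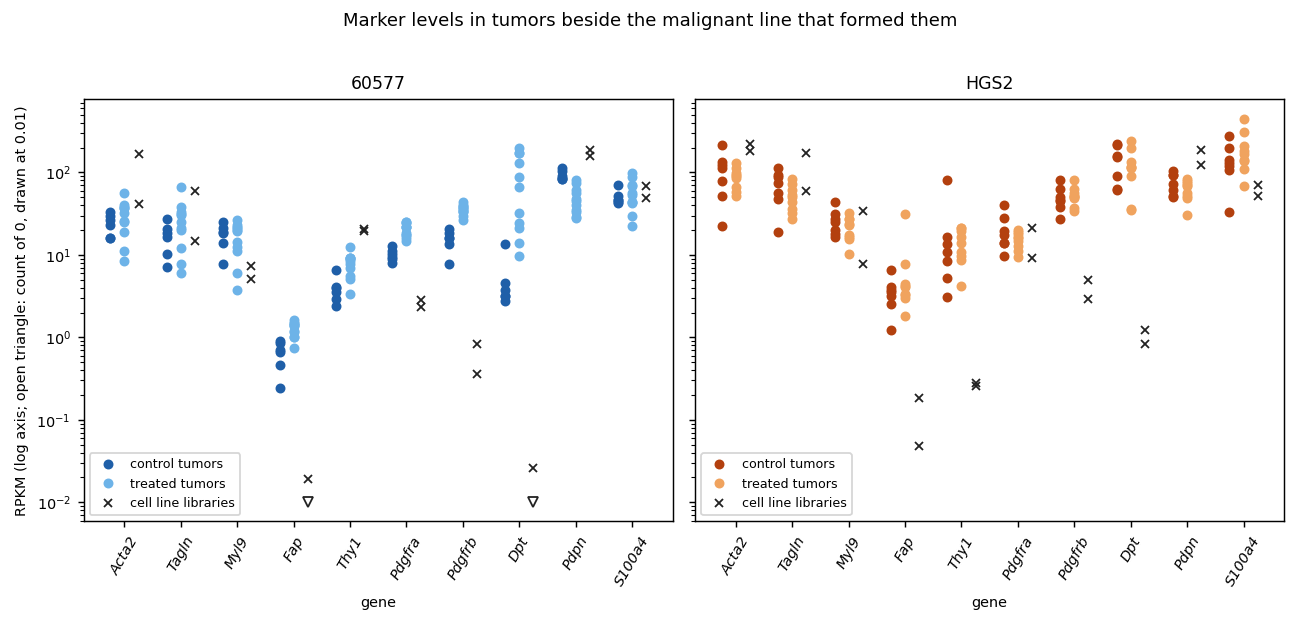
Level of each gene (RPKM, log axis) in control tumors, treated tumors and the cell line libraries of the same model, 60577 on the left and HGS2 on the right. Points are the 33 tumors tested, crosses are cell line libraries and open triangles are counts of 0 drawn at 0.01. Crosses lie above the tumors for Pdpn in both models and for Thy1 in 60577, and far below them for Fap, Dpt and Pdgfrb.

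In untreated tumors, HGS2 held more of nearly the whole set than 60577. In every comparison of tumors between the models, the malignant line, the mouse strain and the time since cell injection differ together and cannot be told apart. Over TP1 and TP2 controls together (7 of HGS2 against 6 of 60577), 7 of 10 genes were higher in HGS2 and 0 lower, where 13.2% of all 16241 genes tested were higher and 8.81% lower. The median of the 10 log2 differences was 1.89 and that of all genes 0.05. Dpt differed most: 60577 controls had 3.20, 3.75 and 4.58 RPKM at TP1 and 13.6, 3.14 and 2.75 RPKM at TP2, and HGS2 controls had 61.8 to 221 RPKM with a median of 152 RPKM, a log2 difference of 4.79 ± 0.60 (adjusted p = 3.8e-07). The models did not overlap in Dpt, Fap or Pdgfrb.

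Fap was at 0.242 to 0.895 RPKM in 60577 controls and at 1.24 to 6.59 RPKM in HGS2 controls (log2 2.50 ± 0.44, adjusted p = 3.8e-05). Pdgfrb was at 7.66 to 20.6 RPKM against 27.6 to 81.8 RPKM (1.72 ± 0.22, adjusted p = 4.8e-07). Thy1 (2.25 ± 0.49), Acta2 (2.05 ± 0.35), Tagln (2.05 ± 0.37) and S100a4 (1.38 ± 0.29) were also called higher in HGS2, with ranges that overlapped between the models, and S100a4 was just under the fold limit after correction for gene length and GC content (0.98, adjusted p = 0.0049). The Thy1 difference was 1.16 (adjusted p = 0.010) without HGS2 TP1 control replicate 1 and 2.91 without the tumors over 10% of 7SL. Pdgfra passed the p threshold just short of a 2-fold change (1.00 ± 0.18, adjusted p = 7.8e-05) and was over it, at up to 1.13, without any 1 of 8 of the 13 controls. Myl9 (0.57 ± 0.29, adjusted p = 0.10) and Pdpn (−0.30 ± 0.20, adjusted p = 0.21) were not called. Pdpn was thus the only one of the 10 with a lower estimate in HGS2.

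The same controls differed in other cell types. Epithelial genes (5 tested, among them Epcam and the keratins) were all lower in HGS2 controls, at a sum of 8.46 to 353 RPKM against 766 to 1472 RPKM in 60577 controls, macrophage genes were all higher (6 of 6) and T cell genes were higher in 4 of 6. Pancreatic acinar genes were higher in 6 of 6, with a median log2 difference of 11.4 and sums of 4.01 to 88060 RPKM in HGS2 controls and 2.13 to 977 RPKM in 60577 controls, and lymphatic endothelial genes in 3 of 4, with sums that overlapped. In epithelial genes the lines differed the same way, the epithelial sum being 376 to 738 RPKM in the HGS2 line and 2244 to 2389 RPKM in the 60577 line. Of the epithelial markers, Epcam (an adhesion protein of epithelial cells) was at 0 and 0.074 RPKM in the HGS2 line, and Pax8 (a transcription factor used to mark ovarian serous carcinoma) did not exceed 0.16 RPKM in any group of tumors or in either line. The part of these cell types in the differences of the 10 genes was not tested.

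Chemotherapy changed part of the set in 60577 tumors, some genes upward and others downward. The receptor gene Pdgfrb and the matrix gene Dpt were higher in treated tumors at all 3 time points, Pdgfra passed both limits at TP1, Thy1 at TP2 and TP3 and Fap at TP3. Acta2, Tagln and Myl9 were lower at TP2 than at TP3 of treatment, and Pdpn fell at TP2 and TP3. At TP1, 3 of 10 genes had risen and 0 had fallen, where 9.65% of all genes had risen and 5.96% fallen. At TP2, 3 had risen and 2 had fallen, where 14.8% of all genes had risen and 9.61% fallen. At TP3, against TP2 controls, 5 were higher and 1 lower, where 14.2% of all genes were higher and 10.2% lower. The median log2 change of the 10 genes was 0.79 at TP1, 0.14 at TP2 and 1.10 at TP3, and that of all genes did not exceed 0.03 at any of them. The comparisons at TP2 and TP3 share their 3 control tumors.

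**Figure D3:**
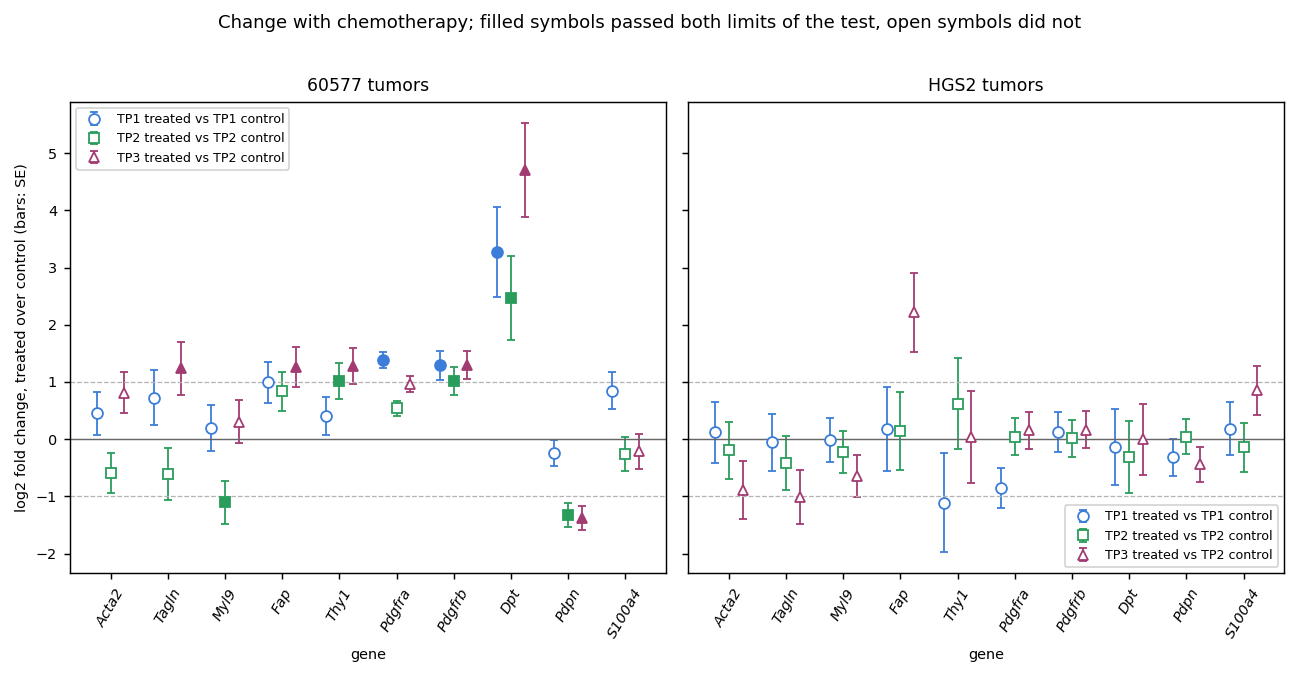
Log2 fold change of each gene, treated over control, in 60577 (left) and HGS2 (right) tumors at TP1, TP2 and TP3, with bars of 1 SE. Filled symbols passed both the adjusted p and the 2-fold limit (dashed lines), and open symbols did not. Filled symbols appear in 60577 panels alone, Dpt reaching 4.71 at TP3 and Pdpn lying at −1.33 and −1.38 at TP2 and TP3.

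Dpt showed the widest change. TP1 controls had 3.20, 3.75 and 4.58 RPKM and TP1 treated tumors 24.1, 65.6 and 21.1 RPKM (log2 3.27 ± 0.79, adjusted p = 0.0055), with every treated tumor above every control. TP2 treated tumors had 88.1, 32.0, 9.59 and 14.0 RPKM (2.46 ± 0.73, adjusted p = 0.010) and overlapped the TP2 controls through control replicate 1, at 13.6 RPKM. At TP3 all 4 tumors were high, at 171, 173, 131 and 200 RPKM (4.71 ± 0.82 over TP2 controls, adjusted p = 0.00022), a range that HGS2 controls also cover. Single tumors moved the size of these changes but not the calls: the TP1 change was 2.56 without treated replicate 2, the TP2 change was 1.49 without treated replicate 1 and 3.60 without control replicate 1, and the TP3 change was 5.845 without that control. Dpt was also called higher in TP3 than in TP2 treated tumors (2.24 ± 0.64, adjusted p = 0.017), a call lost without TP2 treated replicate 3 (1.93, adjusted p = 0.050) or replicate 4 (1.99, adjusted p = 0.055) and larger without replicate 1 (3.24). Without the tumors over 10% of 7SL, Dpt stood at 4.89 at TP2 and 5.83 at TP3 over controls. That fit keeps 1 TP2 treated tumor, replicate 1 (88.1 RPKM), the highest of its group. It also drops TP2 control replicate 1 (13.6 RPKM), the highest of the controls.

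Pdgfrb rose about as much at each time point and varied little. TP1 treated tumors had 36.8, 36.2 and 37.8 RPKM against 13.5, 15.9 and 16.2 RPKM in controls (1.29 ± 0.26, adjusted p = 0.0015). At TP2 the values were 32.9, 34.01, 34 and 26.8 RPKM against 20.6, 7.66 and 18.6 RPKM (1.02 ± 0.24, adjusted p = 0.0024), and at TP3 they were 39.4, 40.7, 43.2 and 29.8 RPKM (1.302 ± 0.24, adjusted p = 0.00043). No treated tumor overlapped the controls of its comparison. The TP2 change sat at the 2-fold limit: it was 0.70 (adjusted p = 0.0020) without the low TP2 control replicate 2, fell just under 1 (0.99) without treated replicate 1, 2 or 3, was 0.97 with no filter and 0.93 with the length and GC correction, and the TP3 change was 0.98 (adjusted p = 0.00015) without that same control.

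Pdgfra passed both limits at TP1. Its levels there were 21.7, 21.7 and 24.9 RPKM in treated tumors and 8.02, 9.01 and 9.37 RPKM in controls, a 2.60-fold rise (log2 1.38 ± 0.14, adjusted p = 1.6e-05). At TP2 treated tumors had 18.7, 17.4, 14.7 and 16.1 RPKM against 11.3, 12.7 and 10.3 RPKM, which passed the p threshold but not the fold limit (0.54 ± 0.13, adjusted p = 0.0029). At TP3 they had 24.7, 17.5, 24.8 and 21.7 RPKM (0.96 ± 0.13, adjusted p = 3.1e-05), again short of 2-fold, and over it without TP2 control replicate 2 (1.06) or TP3 treated replicate 2 (1.06). Treated and control tumors did not overlap in Pdgfra at any time point, and among treated tumors it was lower at TP2 than at TP1 by 0.46 ± 0.13 (adjusted p = 0.026), under the fold limit.

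Fap, though an activated fibroblast marker, remained at low levels in 60577. TP1 controls had 0.460, 0.849 and 0.703 RPKM and treated tumors 1.19, 1.41 and 1.38 RPKM, with no overlap and a log2 change of 0.99 ± 0.36 (adjusted p = 0.046), just short of the fold limit. It passed that limit with other scaling or tests (1.01 to 1.03) and without TP1 control replicate 2 (1.20, adjusted p = 0.047). At TP2 the change was 0.84 ± 0.35 (adjusted p = 0.049), and without control replicate 3 it was 1.23 (0.013). At TP3 Fap was called, at 1.39, 1.48, 1.64 and 1.17 RPKM against 0.666, 0.242 and 0.895 RPKM (1.26 ± 0.35, adjusted p = 0.0069), and not called without TP2 control replicate 2 (0.88, adjusted p = 0.021) or with both models in one fit (1.25, adjusted p = 0.090).

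Thy1 was called at TP2 and TP3. Treated and control tumors overlapped at TP1 (5.07, 6.89 and 3.37 RPKM against 4.11, 3.99 and 3.52 RPKM, 0.41 ± 0.33, adjusted p = 0.37). At TP2 Thy1 was at 9.19, 8.42, 5.50 and 9.06 RPKM against 6.52, 2.41 and 2.90 RPKM (1.02 ± 0.32, adjusted p = 0.012), a change at the fold limit that was 0.95 (adjusted p = 0.0099) with the replicate number as a block, 0.86 with the block and the length and GC correction together, 0.92 with that correction alone and 0.97 with no filter. Without the tumors over 10% of 7SL it was 1.79, in a fit that keeps only TP2 treated replicate 1 and drops TP2 control replicate 1. It also left the called range without TP2 control replicate 2 (0.76, adjusted p = 0.065) or 3 (0.84, 0.058), or treated replicate 1 (0.93), 2 (0.999) or 4 (0.95), and with both models in one fit (adjusted p = 0.20). At TP3 the 4 tumors had 9.22, 8.86, 7.67 and 12.3 RPKM, all above the controls (1.28 ± 0.32, adjusted p = 0.0035), and this call held without each tumor in turn but not with both models in one fit (1.27, adjusted p = 0.13). Since T cells carry Thy1, their markers are given beside it: the summed level of 6 T cell genes was 2.23 to 6.66 RPKM in TP1 controls and 8.99 to 23.4 RPKM in TP1 treated tumors, and 4.93 to 8.95 RPKM in TP2 controls against 27.3 to 51.3 RPKM at TP2 and 37.0 to 48.7 RPKM at TP3. The defining gene Cd3e was at 3 counts or fewer in every cell line library, and the part of T cells in Thy1 was not tested.

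Acta2, Tagln and Myl9 were lowest at TP2 among treated tumors. Acta2 was at 40.8, 32.4 and 24.9 RPKM in TP1 treated tumors, at 25.7, 19.1, 11.02 and 8.50 RPKM at TP2 and at 36.5, 56.2, 37.0 and 38.6 RPKM at TP3. Tagln went from 31.5, 20.2 and 24.8 RPKM through 21.1, 12.2, 7.75 and 5.98 RPKM to 30.3, 66.2, 37.7 and 32.96 RPKM, and Myl9 from 22.8, 21.1 and 14.4 RPKM through 12.4, 11.1, 5.97 and 3.73 RPKM to 21.6, 26.2, 19.2 and 20.3 RPKM. In all 3 genes the lowest TP3 tumor was above the highest TP2 treated tumor, and TP2 replicates 3 and 4 were the lowest of their group.

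From TP2 to TP3 of treatment, Acta2 (1.40 ± 0.33, adjusted p = 0.0074), Tagln (1.85 ± 0.43, 0.0075) and Myl9 (1.41 ± 0.36, 0.010) all rose. With Dpt these were the 4 of 10 genes that rose between those times, with 0 fallen, where 3.47% of all genes rose and 4.4% fell. The 3 contractile genes were called whichever single tumor was left out. From TP1 to TP2 of treatment, Acta2 (−1.03 ± 0.35, adjusted p = 0.049) and Myl9 (−1.23 ± 0.38, adjusted p = 0.036) fell, and 0 genes of the set rose, where 2.44% of all genes fell and 3.58% rose. Tagln was at −1.12 ± 0.45 (adjusted p = 0.088). This fall was not stable. Neither gene was called without any 1 of the 3 TP1 treated tumors or without TP2 treated replicate 3 or 4, Acta2 was also not called without TP2 treated replicate 2, and adjusted p in these fits lay between 0.051 and 0.20. Neither was called with both models in one fit (0.16 for Acta2 and 0.069 for Myl9).

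Set against controls, Myl9 was lower at TP2 and Tagln higher at TP3, while Acta2 was not called. At TP1 and TP2 neither Acta2 (0.45 ± 0.37 and −0.59 ± 0.35) nor Tagln (0.73 ± 0.49 and −0.61 ± 0.45) was called, and Myl9 was called lower at TP2 (−1.11 ± 0.38, adjusted p = 0.021), a call lost with the replicate block and the length and GC correction together (−0.94, adjusted p = 0.040) and without TP2 control replicate 1 (0.070) or 3 (0.11) or treated replicate 3 (0.058) or 4 (0.053). Without TP2 treated replicate 1, Tagln was called lower at TP2 (−1.08, adjusted p = 0.044). At TP3 Tagln was higher than in TP2 controls, at 26.9, 16.4 and 10.2 RPKM (1.24 ± 0.47, adjusted p = 0.037), with no overlap between the groups, and was not called without TP2 control replicate 2 or 3 or TP3 treated replicate 2 or 3 (adjusted p between 0.050 and 0.14) or with both models in one fit (0.053). Acta2 did not overlap either, against 33.1, 23.2 and 15.8 RPKM, and stood at 0.82 ± 0.35 (adjusted p = 0.067), or 1.11 (0.033) without TP2 control replicate 1.

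The low values at TP2 went with the composition of the libraries. TP2 treated replicates 3 and 4, the lowest in Acta2, Tagln and Myl9, were the tumors with the highest 7SL share (19.4% and 26.5%) and the lowest mitochondrial share of 60577, and replicates 1 and 2 had 9.38% and 13.1% of 7SL. Leaving out the 5 tumors of 60577 above 10% of 7SL keeps 1 TP2 treated tumor, replicate 1, whose spread is taken from the other groups. Replicate 1 was the highest of its group in Acta2, Tagln, Myl9 and Dpt, so this fit cannot tell what 7SL has to do with the low values. In it the rise from TP2 to TP3 was 0.71 for Acta2, 0.99 for Tagln, 0.82 for Myl9 and 0.94 for Dpt. Myl9 at TP2 was at −0.39 against controls. Acta2 at TP3 against controls, which does not use that group, was called (1.10, adjusted p = 0.0073). The part of library composition in the low TP2 values was not tested further. The other actins that could share reads with Acta2 were low in 60577: Actg2 averaged 0.30 RPKM at TP2 and 0.53 RPKM at TP3 of treatment, and Acta1 averaged 0.051 and 1.66 RPKM, with 5.24 RPKM in 1 TP3 tumor, while Actg2 reached 17.3 RPKM in 1 HGS2 control.

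Pdpn was the one gene of the set that fell and stayed low. At TP1 treated tumors had 74.3, 61.7 and 81.7 RPKM against 83.1, 84.8 and 91.1 RPKM, all below the controls but not called (−0.24 ± 0.23, adjusted p = 0.45). At TP2 they had 47.4, 56.9, 29.0 and 27.8 RPKM against 83.2, 105 and 113 RPKM, a 2.51-fold fall (−1.33 ± 0.21, adjusted p = 0.00014), and at TP3 33.01, 35.3, 40.0 and 45.0 RPKM (−1.38 ± 0.21, adjusted p = 8.5e-05). Treated and control tumors did not overlap at any time point, and both calls held without each tumor in turn. At TP2 the lowest values came from treated replicates 3 and 4, the libraries with 19.4% and 26.5% of 7SL. The TP3 tumors had 1.93% to 5.89% of 7SL. The part of library composition in the Pdpn values was not tested. Among treated tumors Pdpn was lower at TP2 than at TP1 (−0.86 ± 0.21, adjusted p = 0.016), under the fold limit.

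The malignant line held more Pdpn than any tumor, and epithelial genes were also lower in treated tumors. The 5 epithelial genes tested were all lower in treated than in control 60577 tumors at all 3 time points, their sum being 766 to 948 RPKM in TP1 controls, 147 to 295 RPKM in TP1 treated tumors, 923 to 1472 RPKM in TP2 controls, 128 to 267 RPKM at TP2 and 92.3 to 150 RPKM at TP3. Mesothelial genes, which mark other cells that carry Pdpn, were lower in 6 of 6 genes at TP1, 2 of 6 at TP2 and 4 of 6 at TP3, and the lines also expressed them. At TP1 Pdpn was below every control in each treated tumor but was not called. The parts of malignant and mesothelial cells in the fall of Pdpn were not tested.

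S100a4 was not called against controls at any time point. TP1 treated tumors had 98.9, 67.7 and 86.9 RPKM against 51.8, 46.3 and 43.4 RPKM in controls, with no overlap (0.85 ± 0.32, adjusted p = 0.054), and changes at TP2 (−0.26 ± 0.30) and TP3 (−0.21 ± 0.30) were small. Between TP1 and TP2 of treatment it was lower by 0.92 ± 0.30 (adjusted p = 0.043), short of 2-fold, and past it without TP1 treated replicate 2 or TP2 treated replicate 1 or 2. TP2 treated replicates 3 and 4 (22.7 and 29.7 RPKM) were again the lowest of their group, below replicates 1 and 2 (70.1 and 56.4 RPKM). Leukocytes make S100a4, so their lists are given beside it. Of 4 neutrophil genes tested, 4 were higher at TP1, with a sum of 20.9 to 93.0 RPKM against 5.07 to 13.4 RPKM in controls, and 3 were lower at TP2 and at TP3. Of 6 macrophage genes, 2, 2 and 3 were higher at TP1, TP2 and TP3, and their sum was 292 to 371 RPKM in TP1 controls, 1433 to 2413 RPKM in TP1 treated tumors and still 1343 to 1944 RPKM at TP3, where S100a4 was at 42.7 to 52.5 RPKM. The part of these cells was not tested.

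Without treatment no change of the set was called between TP1 and TP2 in 60577: 0 of 10 genes were called by edgeR, by DESeq2 or by limma-voom, 1 (Pdgfra, 0.38 ± 0.14) had an unadjusted p under 0.05, and 0% of all genes were called in either direction.

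Lists of related genes were followed through the same 60577 comparisons. Of all genes, 9.65%, 14.8% and 14.2% were higher at TP1, TP2 and TP3, and 5.96%, 9.61% and 10.2% were lower. A list count near these shares says nothing particular about its cell type. Of 12 general fibroblast genes (collagens and small matrix proteins), 7 rose at TP1, 3 rose and 1 fell at TP2 and 5 were higher at TP3, their median log2 changes being 1.13, 0.60 and 0.64. Lum (lumican) rose by 2.30, 1.73 and 2.94, and Fbln1 (fibulin 1) by 1.73, 1.53 and 2.49. Col3a1 (type III collagen) rose by 1.89 at TP1 and then fell between TP1 and TP2 of treatment (−1.33, adjusted p = 0.0042), as did Col1a1 (−1.40, adjusted p = 0.0055).

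Of 10 genes of resting, universal fibroblasts, among which Dpt is usually counted, 7 rose at TP1, 3 at TP2 and all 10 were higher at TP3, with medians of 1.87, 1.03 and 2.62. Clec3b (tetranectin) changed most, by 3.59, 3.19 and 4.46, and Scara5 (a ferritin receptor) and Pi16 (a marker of adventitial fibroblasts) were called at all 3 times. The summed level of this list was 186 to 209 RPKM in TP1 controls, 193 to 290.5 RPKM in TP2 controls and 1045 to 1390 RPKM at TP3. The 60577 line alone held 264 to 304 RPKM of it, so the level in controls need not come from fibroblasts. Adipocyte genes moved the same way: 5 of 6 were higher at TP1, 5 of 6 at TP2 and 6 of 6 at TP3, and their sum was 16.4 to 26.5 RPKM in 60577 controls and 542 to 768 RPKM at TP3, where Adipoq (adiponectin) averaged 254 RPKM. In the 60577 line the adipocyte sum was 42.5 to 48.2 RPKM. Within TP1 and TP2, the treated tumor highest in adipocyte genes (204 RPKM at TP1, 283 RPKM at TP2) was also the highest in Dpt (65.6 and 88.1 RPKM). The part of fat-associated tissue in the rise of Dpt was not tested.

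Of 10 inflammatory fibroblast genes, 4 rose at TP1 and 0 fell, 0 rose and 4 fell at TP2, and 1 was higher and 4 were lower at TP3. Cxcl12 rose by 2.61 at TP1 and Ccl7 by 2.07, and both fell again by TP2 of treatment (−1.66 and −1.59), whereas Cxcl1 rose by 1.26 at TP1 and lay at −2.00 at TP2 and −2.50 at TP3. The 60577 line alone held 462 to 633.5 RPKM of the inflammatory list in sum. In 60577 the sum was 701 to 980.5 RPKM in TP1 controls and 940.5 to 1136 RPKM in TP2 controls. Of 13 further contractile and myofibroblast genes, 3 rose at TP1, 5 rose and 2 fell at TP2, and 7 were higher and 1 lower at TP3. Myh11 (smooth muscle myosin, 2.96, 3.17 and 4.32), Lmod1 (leiomodin, 2.41 and 3.52 at TP2 and TP3) and Synpo2 (2.01 and 2.69) rose while Myl9 was lower at TP2, and Tpm2 (a tropomyosin, −1.36 and −1.22) and Tpm1 (−1.002 at TP2) fell, which are named because they were the ones that fell. Tpm2, like Pdpn, was high in the lines, at a mean of 29.0 RPKM in 60577 and 38.3 RPKM in HGS2. From TP1 to TP2 of treatment 0 of these 13 genes rose or fell (median log2 change 0.0017), where 3.58% of all genes rose and 2.44% fell. From TP2 to TP3 of treatment 1 rose and 0 fell (median 0.68), where 3.47% of all genes rose and 4.4% fell.

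Of the ligands for the PDGF receptors, Pdgfd rose at all 3 times (1.40, 1.97 and 3.08), and Pdgfa, Pdgfb and Pdgfc were not called against controls at any of them. Among 8 tested regulators of mesenchymal and contractile genes, Prrx1 rose throughout (1.41, 1.34 and 1.58), Tcf21 rose at TP2 and TP3 (1.39 and 2.91), and the other 6, with Srf and its coactivators Mrtfa and Mrtfb among them, were not called. Of 6 tested pericyte genes, 2, 1 and 3 were higher, with Abcc9 called each time (1.48, 1.21 and 2.61). The pericyte count at TP2 is near the share of all genes. Of 6 lymphoid stroma genes, 2, 2 and 4 were higher, led by Ccl19 (3.40, 7.30 and 7.63), and blood endothelial genes were called in 0, 0 and 2 of 5. The lists share samples with the 10 genes and are described, not tested as sets.

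**Figure D4:**
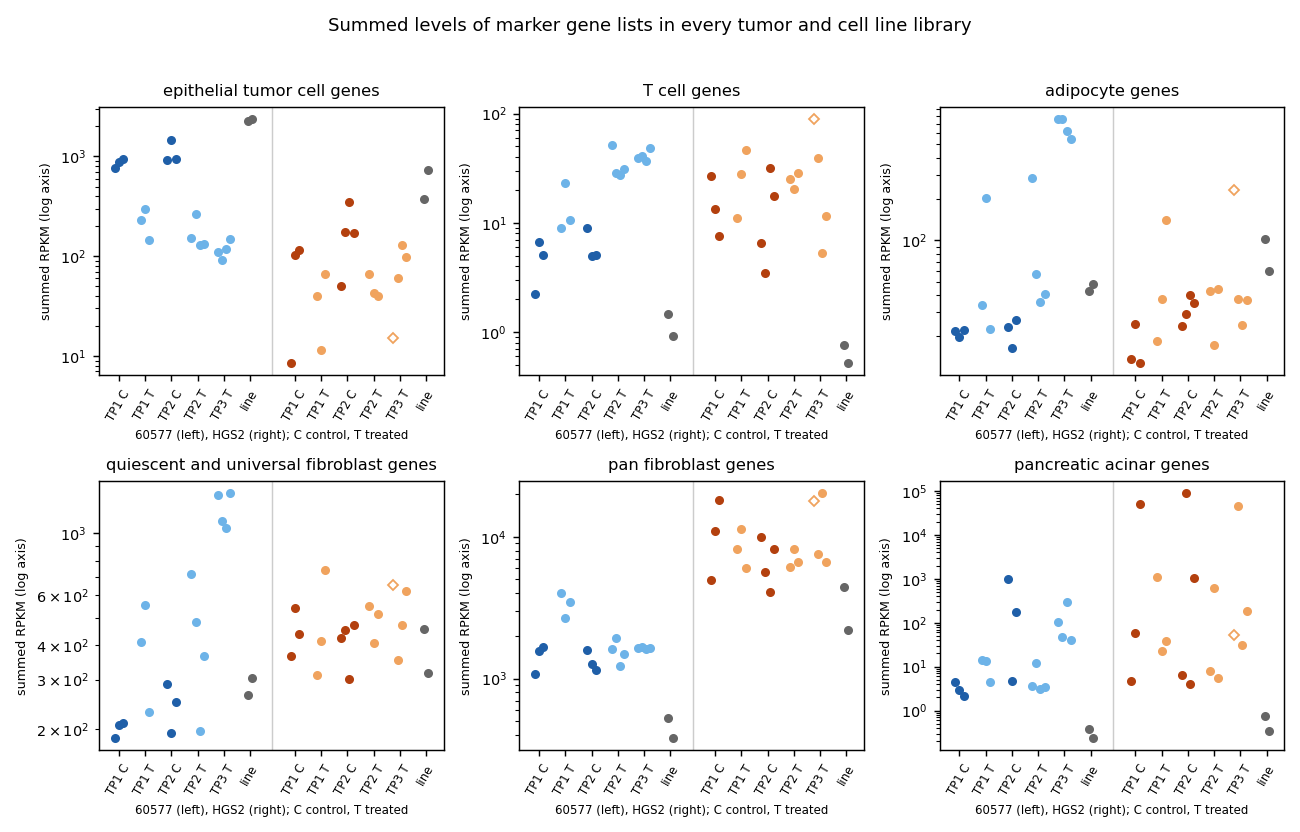
Summed level of the genes of 6 marker lists (RPKM, log axis) in every tumor and cell line library, 60577 on the left and HGS2 on the right of each panel, with an open diamond for HGS2 TP3 treated replicate 1. In 60577, epithelial genes were lower and T cell and adipocyte genes higher in treated tumors, adipocyte genes reaching 542 to 768 RPKM at TP3, and acinar genes stood out in single tumors, HGS2 tumors above all.

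In HGS2 tumors no gene of the set was called in any comparison of treatment or time. By edgeR, 0 of 10 genes passed at TP1, TP2 or TP3 against controls, between treated time points or between control time points, 0% of all 16241 genes were called in either direction in each of the 6 comparisons, and DESeq2 and limma-voom also called 0 of the 10. At an unadjusted p under 0.05 there were 1, 0 and 1 of 10 genes at TP1, TP2 and TP3, 0 and 2 between treated time points and 1 between control time points. The spread among HGS2 tumors of a group was wide, with SDs of 47.0 to 88.5 RPKM around means of 94.2 to 166 RPKM for Dpt in the 5 groups.

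The receptors were not called at any time in HGS2. Pdgfrb averaged 57.6 ± 20.9 RPKM (SD, n = 3) in TP1 controls and 62.3 ± 17.0 RPKM (n = 3) in TP1 treated tumors, 44.9 ± 15.3 RPKM (n = 4) and 45.7 ± 10.1 RPKM (n = 3) at TP2 and 50.2 ± 13.2 RPKM (n = 3) at TP3. Pdgfra was at 28.0, 17.3 and 39.8 RPKM in TP1 controls and 9.30, 19.1 and 17.7 RPKM in TP1 treated tumors (−0.86 ± 0.35, unadjusted p from edgeR = 0.028, adjusted p = 0.999). The groups overlapped through control replicate 2.

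Fap at TP3 turned on a single tumor. TP3 treated tumors had 4.22, 31.1 and 2.98 RPKM against 3.13, 2.56, 1.24 and 4.12 RPKM in TP2 controls (2.22 ± 0.69, adjusted p = 1.00), and replicate 3 alone was high. The tumor kept out of the tests, TP3 treated replicate 1, had 11.04 RPKM of Fap, above all 7 HGS2 controls (1.24 to 6.59 RPKM), and 24.5 RPKM of Pdpn, below all of them (50.1 to 105 RPKM). S100a4 in the 3 tested TP3 tumors (212, 306 and 448 RPKM) was above the TP2 treated tumors (140, 181 and 167 RPKM), at 1.00 ± 0.46 (adjusted p = 0.48), but the tumor kept out of the tests had 48.4 RPKM, below all of these.

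Acta2 was at 22.2 to 215 RPKM over the 7 HGS2 controls and Tagln at 19.0 to 112 RPKM, and the lowest value of both came from TP1 control replicate 3. At TP3 Acta2 had 91.8, 58.5 and 52.3 RPKM, against 114, 51.1, 215 and 124 RPKM in TP2 controls (−0.89 ± 0.51, adjusted p = 1.00), and Tagln had 36.5, 43.9 and 31.8 RPKM against 88.0, 47.4, 112 and 56.3 RPKM (−1.01 ± 0.48, adjusted p = 1.00), with no overlap. TP1 control replicate 3 and TP2 control replicate 2 were among the HGS2 tumors rich in 7SL (13.0% and 20.9%) and in acinar genes (49740 and 88060 RPKM in sum). Dpt, Thy1, Myl9 and Pdpn overlapped between treated and control HGS2 tumors at each time point, with log2 changes between −1.11 (Thy1 at TP1, SE 0.87) and 0.62 (Thy1 at TP2, SE 0.80). The Thy1 estimate at TP1 rested on control replicate 1 (80.6 RPKM), and without it the direction turned (0.996, adjusted p = 1.00).

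Whether the models responded differently was tested as the difference between their treatment effects. At TP1 1 of 10 genes differed, Pdgfra, whose effect was lower in HGS2 by 2.25 ± 0.38 on the log2 scale (adjusted p = 0.0045). Of all genes, 0.449% had a higher and 0.997% a lower effect in HGS2 at TP1. The HGS2 TP1 controls in this difference averaged 28.35 RPKM of Pdgfra, and HGS2 TP2 controls averaged 14.1 RPKM. For Pdgfra at TP2 the difference between the models was −0.50 ± 0.35 (adjusted p = 0.34). At TP2 1 of 10 differed, Pdpn, whose effect was higher in HGS2 by 1.37 ± 0.38 (adjusted p = 0.026), where 3.68% of all genes had a higher and 3.21% a lower effect. HGS2 Pdpn moved by 0.05 ± 0.30 at TP2, against −1.33 in 60577. This call did not hold without HGS2 TP2 treated replicate 1 or 3, 60577 TP2 control replicate 2 or 60577 TP2 treated replicate 3 or 4 (adjusted p 0.057 to 0.073), and the Pdgfra call held without each tumor in turn and was −1.64 (adjusted p = 0.014) without the tumors over 500 RPKM of acinar genes.

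For Dpt the difference was −3.41 ± 1.06 at TP1 (adjusted p = 0.082) and −2.77 ± 1.00 at TP2 (adjusted p = 0.072), and it was called without HGS2 TP1 control replicate 1 (−3.80, 0.040) and without 60577 TP2 control replicate 1 (−3.91, 0.027). Without the tumors over 10% of 7SL, Dpt was called at TP1 (−3.49). Pdpn at TP2 was at 1.31 in that fit, which keeps 1 TP2 treated tumor of 60577. The differences of Fap, Acta2, Tagln, Myl9, Pdgfrb, Thy1 and S100a4 were not called at either time in the fit of all tested tumors. Their standard errors were 0.41 to 0.97 on the log2 scale.

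The patterns of the 10 genes over the 10 tumor groups were compared by Pearson's r of mean log2 levels, as a description over groups that share models and treatments. Acta2 and Tagln were nearest to each other (r = 0.959), Pdgfrb and Dpt to each other (0.943), and Fap was nearest to Pdgfrb (0.889) and Thy1 to Dpt (0.884). Pdpn was least like the rest, with its highest r at 0.405, for Myl9. Among all genes tested, those most like each marker were Kctd20, Omd and Tmem119 for Fap (0.971 to 0.968), Usf3, Frs2 and Slit3 for Acta2 (0.974 to 0.972), Frs2, Scamp4 and Mtmr6 for Tagln (0.973 to 0.963), and Nptn, Mapre1 and Psmc1 for Myl9 (0.931 to 0.919). They were Mcf2l, Thsd7a and Nos3 for Pdgfra (0.965 to 0.918), Dok4, Pi4kb and Hoga1 for Pdgfrb (0.984 to 0.981) and Ano10, Ddr2 and Ptprm for Dpt (0.983 to 0.976). For Pdpn they were Larp4b, Tpm2 and Trmt6 (0.982 to 0.962), for S100a4 Jdp2, Abcb4 and Atp6v0e (0.978 to 0.954), and for Thy1 Cxcl9, Ifi208 and Gm26797 (0.987 to 0.978).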

How the data were processed

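RNA-seq was analysed from whole omental tumors and from malignant cell lines in culture. The authors depleted ribosomal RNA, made strand-specific paired-end libraries, and deposited RSEM expected counts per Ensembl gene, a unit of estimated counts that need not be whole. Trim Galore 0.6.5 and STAR 2.7.0f are named in the submitters' processing notes, with mouse builds mm10 and GRCm38. These were rounded before testing. A gene had to reach 1 CPM in 25% or more of the libraries, which left 16241 genes in tumors and 13742 in cell lines, and these were tested with edgeR 4.0.16 (TMM scaling, quasi-likelihood, two-sided, Benjamini-Hochberg adjustment over all genes kept). Each model was fitted alone with its 5 groups, comparisons between models used all 10 groups, and the cell lines were fitted separately. RPKM used scaled library sizes and the union exon length of GENCODE M21. Tumors and lines are in separate tables. Mice are the replicates of tumors, and p-values of the lines measure only the spread between their libraries, which may be technical.

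The 10 genes and all gene lists were chosen with earlier results of these data known. Of the lists, the genes named are up to 4 with the largest called change per comparison and the defining genes. Among 44 replicate pairs no library was a duplicate of another (lowest chi-square per degree of freedom 9.38). Same-numbered tumors are different mice. Over 12 tumor comparisons, the deviations from the group means correlated above 0.1 in 16 of 36 same-numbered pairs. In 2 comparisons every pair did so. They were treated against control at TP2 in 60577 (r = 0.14, 0.11 and 0.13) and in HGS2 (r = 0.14, 0.29 and 0.30). Correlations this weak do not establish pairing. The reported fits used no block, and the replicate block is given as an alternative only. Alternatives were DESeq2 1.42.0, limma 3.58.1 (voom), other size factors, no filter, a length and GC correction, a replicate block, both models in one fit, all 34 tumors, each library left out in turn and, added after seeing the data, leaving out libraries rich in 7SL RNA or acinar genes. Intervals on counts are exact Poisson 95% intervals, and a count of 0 was given the limit of 3 counts. The fits were tested on simulated counts.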

Additional observations from a re-analysis of the deposited data

Results flagged for a closer look

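In groups of 4 tumors, 3 of the 30 combinations of gene and group held a tumor far from the others, where chance gives about 1 in 20. They were Acta2 at 56.2 RPKM in 60577 TP3 treated replicate 2 (its gap was 0.896 of the group's range), Pdgfrb at 26.8 RPKM in 60577 TP2 treated replicate 4 (0.849) and S100a4 at 52.5 RPKM in 60577 TP3 treated replicate 4 (0.856).

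The effect of treatment differed between the models for Pdgfra at TP1, by −2.25 on the log2 scale of HGS2 over 60577, and for Pdpn at TP2, by 1.37. The tumor kept out of the tests, HGS2 TP3 treated replicate 1, had Fap at 11.04 RPKM, above the highest of the 7 HGS2 controls (6.59 RPKM).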

How the results depend on the processing

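No called change of the 10 genes reversed under any alternative, and rescaling by DESeq2 size factors moved the median of all genes by at most 0.02 on the log2 scale. The counts that follow take in every gene called in a fit, also those not called in the reported fit. In 60577 at TP2, 5 genes were called in the reported fit, 3 with no filter or the length and GC correction (losing Pdgfrb and Thy1), 3 with the replicate block and that correction together (losing Thy1 and Myl9), and 3 to 4 with 1 tumor left out. At TP3, the count was 6 in the reported fit, 3 with both models in one fit (losing Fap, Thy1 and Tagln) and 4 to 7 with 1 tumor left out. Between TP1 and TP2 of treatment it was 2 in the reported fit, 0 with the replicate block and with both models in one fit, 1 with no filter and with the block and correction, and 0 to 4 with 1 tumor left out. Between TP2 and TP3 it was 4 in the reported fit. Without libraries over 10% 7SL RNA, 60577 keeps 1 TP2 treated tumor, so no count is given for comparisons that use that group. For the difference between models, DESeq2 called 2 at each time point in place of 1, leaving out libraries over 10% 7SL RNA gave 2 at TP1, and leaving out 1 tumor gave 1 to 2 at TP1 and 0 to 2 at TP2. Between the cell lines it was 4 in the reported fit, 7 with no filter and 1 to 6 with 1 library left out.

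The replicate block at TP2 in 60577 left 4 genes called, losing Thy1 (0.95), and changed no call at TP2 in HGS2. In no comparison do the numbers mark a shared animal, and r between same-numbered tumors ran from −0.49 to 0.37. For the cell lines r was −0.15, and with the numbers crossed 4 genes were called. In all these comparisons the cause was not tested. Depth limits Fap and Dpt in the 60577 line, where no library had more than 4 counts of either.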
